A study of Mus musculus with 8 samples.

Results

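Epithelial to mesenchymal transition (EMT) genes were followed by symbol in the gene counts of mouse embryonic stem cells (ESCs) depleted of single members of the HIRA complex. The set holds 10 of the 55418 genes listed, and its members were taken by gene name, with earlier results of these data known. It comprises the epithelial genes Epcam, Cldn6 and Esrp1, the mesenchymal genes Vim and Fn1, and the transcription factors Snai1, Snai2, Zeb1, Zeb2 and Twist1. All 10 were found in the tables, and all 10 passed the filter on low counts in every comparison.

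The cells were E14 ESCs, a mouse line with the strain label 12910la, grown on 0.2% gelatin in 15% serum with 10 ng/ml leukaemia inhibitory factor (LIF). There were 8 libraries in 4 groups of 2: control, Hira depletion, Ubn1 depletion and Ubn2 depletion. Cells received 1000 ng of a pSuper puro plasmid, which in the depletion groups expressed an shRNA against Hira, Ubn1 or Ubn2. By the sample labels they were kept from 24 h for 3 days in 1 µg/ml puromycin, while the study's methods give a lower dose and allow an earlier start. The control genotype is given as wild type, while the study elsewhere names a luciferase shRNA as its control. Each depletion was a short-term knockdown, not a knockout, in a mixed population of selected cells from a single parental line. The labels do not say whether libraries of a group came from separate cultures, so p-values measure only the spread between these libraries.

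EMT is the change in which cells joined in a sheet lose their junctions and become motile. Epithelial genes such as Epcam, Cldn6 and Cdh1 are turned down, mesenchymal genes such as Vim, Fn1 and Cdh2 are turned up, and factors of the Snail, Zeb and Twist families drive this switch by repressing epithelial genes. Mouse ESCs grow as compact epithelial colonies, and cells of the embryo pass through such a transition at gastrulation. HIRA is a chaperone complex that places the histone variant H3.3 on chromatin, and Ubn1 and Ubn2 are alternative subunits of it. The comparisons address whether losing Hira, Ubn1 or Ubn2 moves the same EMT genes.

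Libraries held 19710040 to 32706053 counts on genes. Levels are given as CPM, the counts of a gene scaled to library size and composition with edgeR's TMM factors. Hira was at 93.6 ± 5.76 CPM in controls and 10.2 ± 0.261 after its own depletion, Ubn1 at 48.6 ± 6.33 and 23.8 ± 0.0363, and Ubn2 at 50.9 ± 1.12 and 27.4 ± 3.92 (mean ± SD, n = 2 each). Their own depletion thus left 0.109 of the control level of Hira, 0.49 of Ubn1 and 0.537 of Ubn2, so the EMT genes were compared after knockdowns of unequal depth. The summed CPM of 8 ESC markers was 6560 to 6783 in controls, 5856 to 5963 after Hira depletion, 5788 to 5855 after Ubn1 depletion and 5541 to 5710 after Ubn2 depletion. The sum does not describe each marker. In every depletion 3 of the 8, Sox2, Nanog and Esrrb, averaged above control and 5 below it, among them the abundant Tdgf1 and Dppa5a. By the calling rule given below, 0 were called after Hira or Ubn1 depletion and 2 were called lower after Ubn2 depletion. The Ubn2 libraries stood apart by heart muscle genes. Their 8 markers summed to 186 and 286 CPM against 14.3 to 21.5 in the other 6 libraries, and both Ubn2 libraries carried this signal.

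Genes were called at a fold change above 1.5 with a p, adjusted by Benjamini-Hochberg over all genes tested, below 0.05 in the quasi-likelihood test of edgeR. After Hira depletion, 4 of the 10 EMT genes were called, all of them higher, against 16.2% of all 19035 genes tested (10.8% higher and 5.4% lower). These were Epcam, Esrp1, Vim and Twist1, which span both arms of the transition. After Ubn1 depletion, 2 of 10 were called, both of them lower and both epithelial, Cldn6 and Esrp1, against 3.09% of 18373 genes (1.53% higher and 1.56% lower). After Ubn2 depletion, 4 of 10 were called, against 18.3% of 18219 genes (9.59% higher and 8.75% lower). Here the transcription factors Snai1, Zeb2 and Twist1 were higher and the tight junction gene Cldn6 was lower. With 10 genes chosen for their role, these counts are descriptions and were not tested as a group. Over the 10 genes, the median log2 fold change was 0.36 after Hira, 0.04 after Ubn1 and 0.15 after Ubn2 depletion, beside medians of 0.011, -0.0024 and -0.0041 over all genes tested. The 3 depletions share the same 2 control libraries, so their fold changes are not independent of each other.

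**Figure D1:**
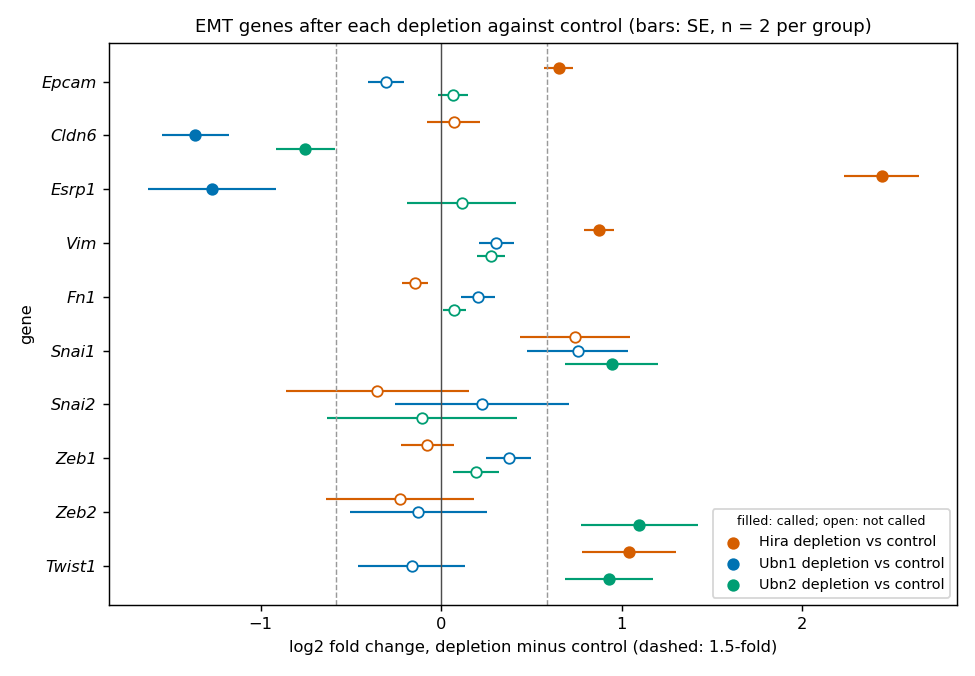
Log2 fold change of each EMT gene (rows) after Hira, Ubn1 or Ubn2 depletion against control, with bars for the standard error (n = 2 per group), filled points for called genes and dashed lines at 1.5-fold. Esrp1 lies at 2.44 after Hira depletion and at -1.27 after Ubn1 depletion, while Fn1, Snai2 and Zeb1 have open points in all comparisons.

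In control ESCs the mesenchymal genes Fn1 and Vim had the highest levels of the set, followed by Epcam. Per kilobase of merged exons, the order of control levels was Fn1 at 123.9 ± 0.0938, Vim at 44.9 ± 4.80, Epcam at 31.1 ± 1.55, Cldn6 at 6.95 ± 0.539 and Zeb1 at 2.16 ± 0.381 CPM per kb. It went on with Twist1 at 1.62 ± 0.377, Snai1 at 1.25 ± 0.0206, Esrp1 at 0.366 ± 0.0258, Snai2 at 0.339 ± 0.0706 and Zeb2 at 0.0855 ± 0.0450 CPM per kb (SD, n = 2). Zeb1 and Twist1, Twist1 and Snai1, and Esrp1 and Snai2 are neighbours in this order whose means were closer than the sum of their SDs. In bulk RNA, fewer cells of one type and less RNA per cell cannot be told apart, so a low level such as that of Snai2 may be a low level in all cells or a higher one in few.

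Snail and Zeb proteins bind E-boxes with the letters CACCTG, which read CAGGTG on the other strand. Both forms were searched in the 250 bases before RefSeq start sites of GRCm38.p6, which were at hand for Epcam, Cldn6, Vim, Snai1, Zeb2 and Twist1. Of 32851 promoters, 17.2% held at least 1 such box and 2.06% held 2 or more. Epcam held 2, with first bases at -187 and -19 from its start, Cldn6 held 1 at -93 and Snai1 held 1 at -126, all counted from the RefSeq start, while the windows of Vim, Twist1 and the starts of Zeb2 held none. The boxes are shown because the factors of this set act on such sites in epithelial genes. The 30 bases around each follow on the plus strand, on which all 3 genes lie, with the box in capitals. They cover chr17:87635780-87635809 and chr17:87635948-87635977 for Epcam, chr17:23679260-23679289 for Cldn6 and chr2:167538057-167538086 for Snai1.
Epcam at -187: gccagtagggccCACCTGctggaggaccgg
Epcam at -19: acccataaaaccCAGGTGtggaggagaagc
Cldn6 at -93: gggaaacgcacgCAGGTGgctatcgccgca
Snai1 at -126: gcagcccaggcgCACCTGctccggtctcag
The RefSeq start of Cldn6 lies downstream of the GENCODE start used for positions below, so its box falls inside the GENCODE gene, while those of Epcam and Snai1 lie before it. A match of letters is a description and not a bound site. Of the 2 epithelial genes with a box, Cldn6 fell after Ubn1 and Ubn2 depletion and Epcam, of the 3 depletions, was called after that of Hira alone, where it was higher.

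Epcam, on chromosome 17 of GRCm38 from 87635979 to 87651129, encodes a membrane glycoprotein that joins epithelial cells and is high in ESCs. The controls had 70.7 and 65.8 CPM, the Hira libraries 113 and 104, the Ubn1 libraries 53.4 and 57.3 and the Ubn2 libraries 66.8 and 76.1. The Hira libraries were above all others and the Ubn1 libraries below all others, while the Ubn2 libraries lay on both sides of the controls. Epcam rose 1.58-fold after Hira depletion (log2 fold change 0.65, SE 0.08, adjusted p = 3.28e-06). This value sits near the threshold, and without Hira depletion replicate 1 it was 0.58 on the log2 scale, just under 1.5-fold. The difference was -0.30 after Ubn1 depletion (95% interval -0.51 to -0.10, adjusted p = 0.0542) and 0.07 after Ubn2 depletion (-0.11 to 0.24, adjusted p = 0.558), and neither was called.

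Cldn6, on chromosome 17 from 23679249 to 23682446, encodes claudin 6, a tight junction protein typical of pluripotent and early embryonic cells. The controls had 11.3 and 12.6 CPM, the Hira libraries 13.3 and 12.1, the Ubn1 libraries 4.15 and 5.15 and the Ubn2 libraries 7.59 and 6.63. The Ubn1 libraries were the lowest, the Ubn2 libraries lay between them and the controls without overlap, and the Hira libraries overlapped the controls. Cldn6 fell to 0.389 of the control level after Ubn1 depletion (log2 fold change -1.36, SE 0.19, adjusted p = 9.17e-06) and to 0.595 after Ubn2 depletion (-0.75, SE 0.16, adjusted p = 0.000955). Both calls held with each library left out in turn. After Hira depletion the log2 difference was 0.07 (95% interval -0.24 to 0.37, adjusted p = 0.759), an interval that spans both a small loss and a small gain.

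Esrp1, on the minus strand of chromosome 4 from 11331933 to 11386783, encodes an RNA-binding protein that sets the epithelial pattern of splicing. The controls had 2.19 and 2.42 CPM, the Hira libraries 14.3 and 11.1, the Ubn1 libraries 0.913 and 0.999 and the Ubn2 libraries 1.89 and 3.16. Its group means in log2 CPM spanned 3.17, the widest range of the 10 genes. Both Hira libraries were far above the controls, both Ubn1 libraries below them, and the Ubn2 libraries straddled them. Esrp1 rose 5.50-fold after Hira depletion (log2 fold change 2.44, SE 0.21, adjusted p = 2.84e-08) and fell to 0.414 of control after Ubn1 depletion (-1.27, SE 0.35, adjusted p = 0.0229). The Ubn1 value rests on 20 and 26 counts against 45 and 77. DESeq2 gave no adjusted p for this value (log2 fold change -1.28), so it was not called there. It lost its call without control replicate 1 (log2 fold change -1.33, adjusted p = 0.0874) or control replicate 2 (-1.20, adjusted p = 0.199). After Ubn2 depletion the log2 difference was 0.11, with a 95% interval of -0.51 to 0.74. Esrp2, its close paralog, was not called after any depletion, with log2 fold changes of 0.32, 0.41 and 0.25 after Hira, Ubn1 and Ubn2 depletion.

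**Figure D2:**
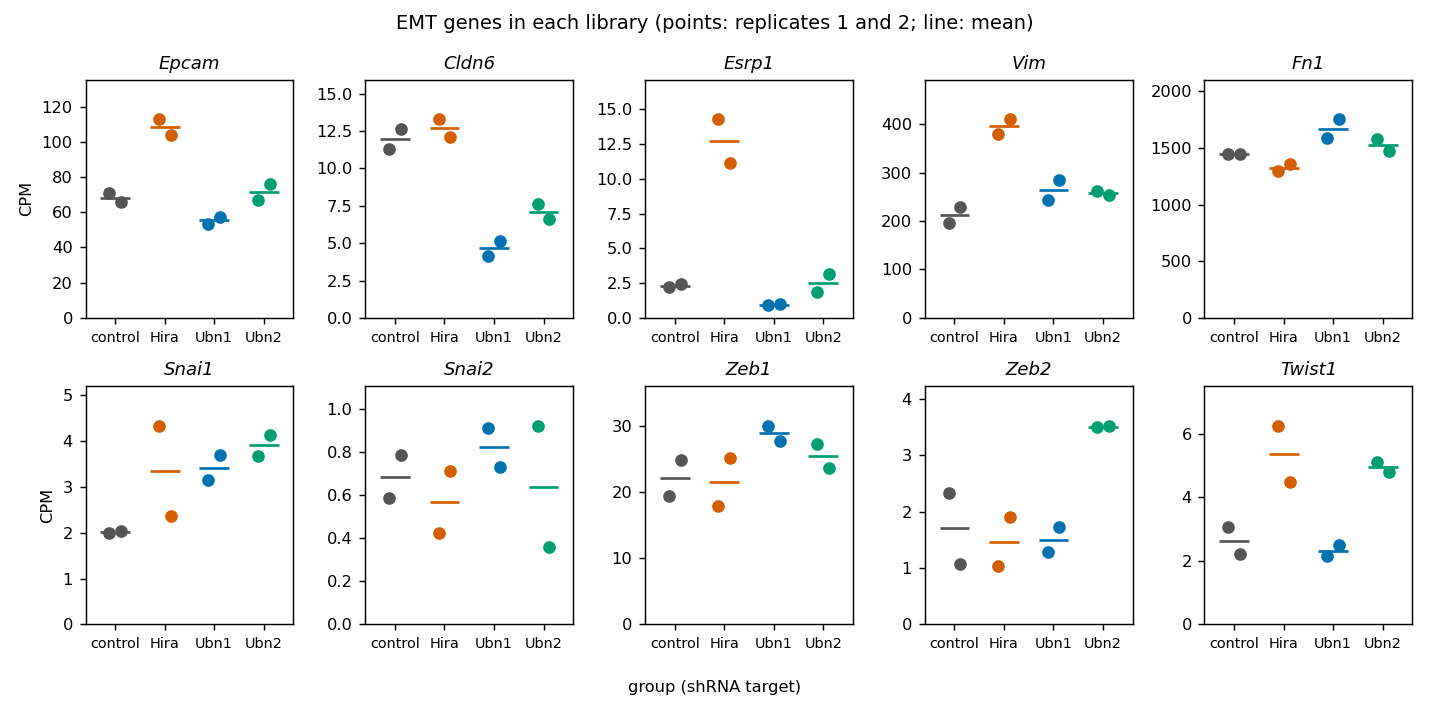
CPM of each EMT gene in the 8 libraries (points, 2 replicates per group; line, group mean; linear axes from 0, one per gene). The Hira libraries stand alone at the top for Epcam, Esrp1 and Vim, the Ubn1 libraries at the bottom for Cldn6 and Esrp1, and the Ubn2 libraries at the top for Zeb2.

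Vim, on chromosome 2 from 13573927 to 13582826, encodes the intermediate filament protein vimentin, the most used mark of mesenchymal cells, which ESCs also express. The controls had 197 and 229 CPM, the Hira libraries 381 and 409.8, the Ubn1 libraries 243 and 284 and the Ubn2 libraries 262 and 253. Every depleted library was above both controls, and the Hira libraries were above all others. Vim rose 1.86-fold after Hira depletion (log2 fold change 0.88, SE 0.08, adjusted p = 9.66e-08). Its differences of 0.31 after Ubn1 depletion (SE 0.10, adjusted p = 0.0474) and 0.28 after Ubn2 depletion (SE 0.08, adjusted p = 0.00642) passed on p but were under 1.5-fold, so they were not called. After Hira depletion the mesenchymal gene Vim and the epithelial genes Epcam and Esrp1 thus rose together.

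Fn1, on the minus strand of chromosome 1 from 71585520 to 71653200, encodes the matrix protein fibronectin. It was the most abundant gene of the set and had the smallest SD of log2 CPM over the 8 libraries (0.14). The controls had 1447 and 1448 CPM, the Hira libraries 1293 and 1356, the Ubn1 libraries 1587 and 1752 and the Ubn2 libraries 1577 and 1472. The Hira libraries were below both controls and the Ubn1 and Ubn2 libraries above them, but the distances were small. The log2 differences of -0.15 (95% interval -0.30 to 0.01), 0.20 (0.01 to 0.39) and 0.07 (-0.06 to 0.21) had adjusted p of 0.129, 0.187 and 0.402. None of these intervals reached 1.5-fold. An antisense gene, Apol7d, shares 292 exon bases with Fn1, which is 2.5% of its exon length. The strand setting of the counting is not given in the sources used here, so reads from such overlaps cannot be told apart.

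Snai1, on chromosome 2 from 167538195 to 167542814, encodes Snail, which represses Cdh1 and other epithelial genes. The controls had 2.00 and 2.05 CPM, the Hira libraries 4.33 and 2.37, the Ubn1 libraries 3.15 and 3.69 and the Ubn2 libraries 3.68 and 4.13. All 6 depleted libraries were above both controls, but the Hira libraries were far apart, at 143 and 50 counts. Snai1 rose 1.93-fold after Ubn2 depletion (log2 fold change 0.94, SE 0.26, adjusted p = 0.00626), while DESeq2's Wald test gave an adjusted p of 0.0546. The differences after Hira depletion (0.74, SE 0.30, adjusted p = 0.0626) and after Ubn1 depletion (0.76, SE 0.28, adjusted p = 0.0907) were not called. That after Hira depletion passed without a filter on low counts (adjusted p = 0.0344), with all 8 libraries in 1 model (0.0442) and without Hira depletion replicate 2 (1.08, adjusted p = 0.003). It was far from passing without Hira depletion replicate 1 (0.21, adjusted p = 0.726) and with DESeq2 (0.71, adjusted p = 0.225), so the value turned on the Hira library left in.

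Twist1, on chromosome 12 from 33957671 to 33959829, encodes a basic helix-loop-helix factor of mesoderm and neural crest. The controls had 3.07 and 2.20 CPM, the Hira libraries 6.24 and 4.46, the Ubn1 libraries 2.15 and 2.50 and the Ubn2 libraries 5.11 and 4.80. All Hira and Ubn2 libraries lay above all control and Ubn1 libraries. Twist1 rose 2.03-fold after Hira depletion (log2 fold change 1.04, SE 0.26, adjusted p = 0.00366) and 1.88-fold after Ubn2 depletion (0.93, SE 0.24, adjusted p = 0.0044). Without control replicate 2 the Ubn2 value was 0.69 and was not called (adjusted p = 0.0611). After Ubn1 depletion the difference was -0.16 (95% interval -0.77 to 0.44).

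Zeb1 and Zeb2 are related zinc finger repressors of epithelial genes. Zeb1, on chromosome 18 from 5591860 to 5775467, had 19.4 and 24.9 CPM in the controls, 17.9 and 25.2 in the Hira libraries, 30.1 and 27.8 in the Ubn1 libraries and 27.3 and 23.7 in the Ubn2 libraries. The Ubn1 libraries were above both controls, and the other groups overlapped them. Its log2 differences of -0.08, 0.37 and 0.19 after Hira, Ubn1 and Ubn2 depletion were not called (adjusted p = 0.73, 0.0625 and 0.239). Zeb2, on the minus strand of chromosome 2 from 44983632 to 45117395, had 2.34 and 1.07 CPM in the controls, 1.03 and 1.90 in the Hira libraries, 1.28 and 1.73 in the Ubn1 libraries and 3.50 and 3.52 in the Ubn2 libraries. Both Ubn2 libraries were above the other 6, and the 2 controls differed more from each other than the Hira or Ubn1 means did from theirs. Zeb2 rose 2.06-fold after Ubn2 depletion (log2 fold change 1.10, SE 0.32, adjusted p = 0.0102). The call was lost without control replicate 2, where the value was 0.58 (adjusted p = 0.185), and DESeq2 gave an adjusted p of 0.0706.

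Snai2, on chromosome 16 from 14705852 to 14709385, encodes Slug, the relative of Snail that marks neural crest and mesoderm. Its 8 libraries held 7 to 25 counts, or 0.357 to 0.920 CPM. The groups overlapped control in each depletion, and the log2 differences of -0.35 (95% interval -1.41 to 0.70), 0.23 (-0.76 to 1.21) and -0.11 (-1.20 to 0.99) leave room for changes of over 1.5-fold in either direction.

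The depletions were next set against each other directly, since a call in one and not in another does not show a difference. Of the 10 genes, 5 were called between Hira and Ubn1 depletion, all of them higher after Hira depletion, against 12.7% of 18819 genes (9.52% higher and 3.16% lower). Esrp1 was 13.3-fold higher (log2 difference 3.74, SE 0.25, adjusted p = 4.37e-11), Cldn6 2.73-fold (1.45, adjusted p = 3.34e-06), Twist1 2.31-fold (1.22, adjusted p = 0.0012) and Epcam 1.95-fold (0.98, adjusted p = 7.45e-08). Vim was the fifth, with a log2 difference of 0.59 at the threshold itself (adjusted p = 0.000146), which fell under 1.5-fold with DESeq2 (0.56) and in other settings. All 3 epithelial genes were thus higher after Hira than after Ubn1 depletion.

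Between Hira and Ubn2 depletion 5 of the 10 were called, 4 higher and 1 lower after Hira depletion, against 17.6% of 18563 genes (12% higher and 5.61% lower). Esrp1 was 5.03-fold higher after Hira depletion (log2 difference 2.35, SE 0.24, adjusted p = 5.28e-06), Cldn6 1.78-fold (0.84, adjusted p = 0.00105), Vim 1.53-fold (0.62, adjusted p = 3.27e-05) and Epcam 1.51-fold (0.61, adjusted p = 7.5e-05). Epcam dropped under 1.5-fold without Hira depletion replicate 1 (0.54) or Ubn2 depletion replicate 1 (0.51), and Vim without Hira depletion replicate 2 (0.57). Zeb2 went the other way and was at 0.417 of its Ubn2 level (-1.30, SE 0.33, adjusted p = 0.00653). Twist1, which rose after both depletions, differed between them by 0.13 (95% interval -0.35 to 0.61), and Snai1 by -0.18 (-0.79 to 0.42).

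Between the Ubn2 and Ubn1 depletions, which target alternative subunits, 3 of the 10 were called, all higher after Ubn2 depletion, against 8.7% of 18205 genes (4.61% higher and 4.09% lower). They were Esrp1 at 2.64-fold (log2 difference 1.38, SE 0.37, adjusted p = 0.0165), Zeb2 at 2.33-fold (1.21, SE 0.30, adjusted p = 0.0103) and Twist1 at 2.13-fold (1.09, SE 0.25, adjusted p = 0.00607). With DESeq2 only Twist1 was called (adjusted p = 0.0314), with 0.0797 for Esrp1 and 0.0537 for Zeb2. The call of Esrp1 was also lost without Ubn2 depletion replicate 2 (0.98, adjusted p = 0.243). Cldn6 differed by 0.61 (95% interval 0.17 to 1.05, adjusted p = 0.0548) and was not called, so the lower Cldn6 after Ubn1 than after Ubn2 depletion was not shown to differ by this test. It passed in models without a filter (0.0454) and with all 8 libraries (0.0229).

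**Figure D3:**
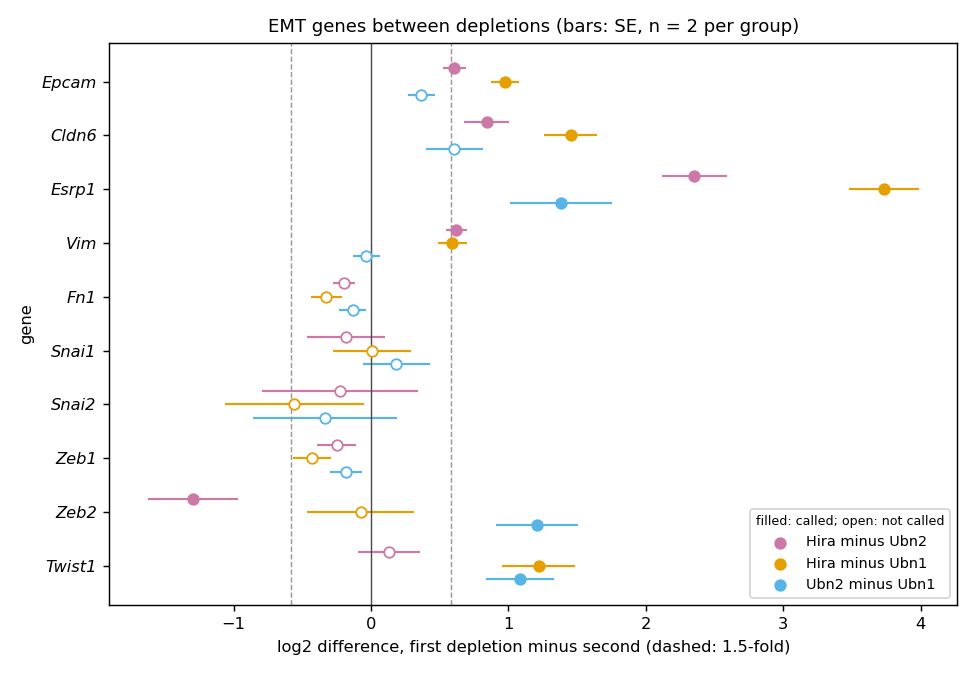
Log2 difference of each EMT gene between 2 depletions (the first minus the second), with bars for the standard error (n = 2 per group), filled points for called genes and dashed lines at 1.5-fold. Esrp1 lies at 3.74 for Hira minus Ubn1 and 2.35 for Hira minus Ubn2, and Zeb2 lies at -1.30 for Hira minus Ubn2 and 1.21 for Ubn2 minus Ubn1.

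Other epithelial genes were described from a list of 40 adhesion, junction and keratin genes and their regulators, of which 39 were tested. After Hira depletion 12 were called higher and 1 lower, with a median log2 fold change of 0.45, after Ubn1 depletion 1 higher and 3 lower (median -0.06), and after Ubn2 depletion 4 higher and 8 lower (median 0.11). These are 33.3%, 10.3% and 30.8% of the genes of the list that were tested, beside the 16.2%, 3.09% and 18.3% called among all genes. Hira depletion raised Cdh3 (P-cadherin, 1.47), Marveld2 (tricellulin, 1.35), Krt18 (the simple epithelial keratin 18, 1.31) and Marveld3 (1.22). Krt18 averaged 13.1 CPM in controls, 32.6 in the Hira libraries and 6.96 in the Ubn2 libraries, where it was called lower (-0.92, adjusted p = 0.000635). Ubn2 depletion also lowered Cgn (cingulin of tight junctions, -1.32), Krt19 (-1.18) and Tjp3 (-1.06) and raised the epithelial transcription factor Grhl2 (1.25). Ubn1 depletion lowered Cldn7 (-1.34), Tjp3 (-0.64) and Krt19 (-0.59) and raised Jup (plakoglobin, 0.59). Jup averaged 136 CPM in controls, 206 after Ubn1 depletion and 215 after Ubn2 depletion. Cldn7 averaged 3.42 CPM in controls, 1.34 after Ubn1 depletion and 2.11 after Ubn2 depletion. The keratins differed directly between Hira and Ubn2 depletion, by 2.25 for Krt18 (adjusted p = 1.06e-06) and 1.89 for Krt19 (adjusted p = 3.38e-06).

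The classical cadherins were named after their values were seen, and in no depletion was one called lower and the other higher. Cdh1 (E-cadherin) was at 299 ± 7.52 CPM in controls, 371 ± 31.1 after Hira depletion, 243 ± 11.8 after Ubn1 depletion and 354 ± 18.5 after Ubn2 depletion (SD, n = 2), and its log2 differences of 0.30, -0.30 and 0.24 were all under 1.5-fold. Cdh2 (N-cadherin) was at 3.39 ± 0.104 CPM in controls and rose after Hira depletion (1.32, adjusted p = 3.29e-05) and after Ubn2 depletion (0.89, adjusted p = 0.0048). Between Hira and Ubn1 depletion both cadherins were called, Cdh1 by 0.62 and Cdh2 by 1.47, and both were higher after Hira depletion.

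Other mesenchymal genes were taken from a list of 39, of which 37 were in the tables. After Hira depletion 11 of 30 tested were called higher and 3 lower (median 0.47), after Ubn1 depletion 1 and 1 of 30 (median -0.01), and after Ubn2 depletion 11 and 5 of 33 (median 0.28). The shares called were 46.7%, 6.67% and 48.5%, beside 16.2%, 3.09% and 18.3% of all genes. The 33 are not the same genes as the 30. They include Col3a1, Acta2 and Col1a2, which passed the filter on low counts only through the Ubn2 libraries. Their calls as higher thus follow from the filter, and the Ubn2 count, share and median are not like for like with the others. Hira depletion raised Col6a1 (2.31), Fbn1 (fibrillin 1, 1.98), Nes (the filament protein nestin, 1.39) and Cnn1 (1.33). Fbn1 was called higher after all 3 depletions, at 4.23 CPM in controls and 17.0, 9.48 and 9.15 after Hira, Ubn1 and Ubn2 depletion. Ubn1 depletion lowered Pdgfra (-0.79). After Ubn2 depletion, S100a6 (1.83) rose. Col1a2 (2.85), which entered through the filter, had 6 and 12 counts in controls and 69 and 35 after Ubn2 depletion.

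Col3a1 and Acta2 had 0 to 6 counts in each library other than the Ubn2 libraries. Col3a1, a fibrillar collagen, had 0 counts in both controls and 147 and 81 after Ubn2 depletion. Acta2, the smooth muscle actin, had 0 and 3 counts in controls and 233 and 143 after Ubn2 depletion. Heart muscle markers moved with them. Of 8 such markers, 7 were called higher after Ubn2 depletion and Myl7 was lower, and Actc1 (cardiac actin) went from 2 and 6 counts to 1856 and 975. Only 4 of the 8 passed the filter in the Hira and Ubn1 comparisons with control. The other markers entered the test through the Ubn2 libraries. Blood markers summed to 5.26 to 8.74 CPM in Ubn2 libraries and 0.615 to 1.14 in the others, with Hbb-bs at 0 in both controls and at 75 and 45 counts after Ubn2 depletion. Fibroblast markers were split. Dcn (21 and 3 counts), Lum (6 and 1) and Postn (29 and 14) had counts in the Ubn2 libraries and none in the other 6. Pdgfrb, the most abundant of these markers, went down from 20.8 to 7.49 CPM, and Thy1 from 13.8 to 8.85 CPM. Of 6 tested after Ubn2 depletion, 3 were called higher and 2 lower with a median of 1.56. In the other comparisons with control, 3 were tested. Col3a1 and Postn, at 0 counts in both controls, and Col1a2 passed the filter only through the Ubn2 libraries. These are the 3 called higher, so that count and the median follow in part from the filter. Col1a1, Col1a2, Col3a1, Thy1 and Pdgfrb also belong to the mesenchymal list above, so this is not separate evidence. The sum was 31.6 to 35.7 CPM after Ubn2 depletion and 39.5 to 43.1 in controls. The part of these cell type markers in the Ubn2 values of Col3a1, Acta2, Snai1, Zeb2 and Twist1 was not tested.

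**Figure D4:**
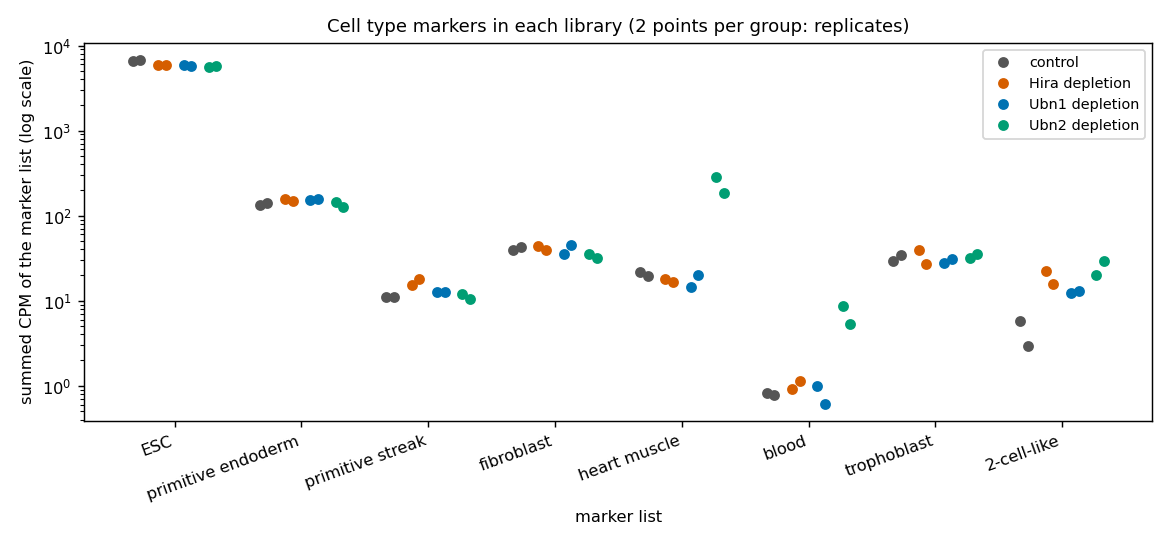
Summed CPM (log scale) of 8 lists of cell type markers in the 8 libraries, with 2 points per group. The Ubn2 libraries lie at 186 and 286 CPM for heart muscle, against 14.3 to 21.5 in the others, and the 2-cell-like markers are above the controls in all depletions.

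The 2-cell-like markers, led by Zscan4c, summed to 2.96 to 5.75 CPM in controls, 15.7 to 22.0 after Hira depletion, 12.2 to 13.0 after Ubn1 depletion and 20.3 to 29.4 after Ubn2 depletion. Primitive streak markers, which accompany EMT in the embryo, summed to 15.2 to 18.0 CPM after Hira depletion, against 11.1 to 11.2 in controls, 12.6 to 12.8 after Ubn1 depletion and 10.4 to 11.9 after Ubn2 depletion. Primitive endoderm markers summed to 133 to 139 CPM in controls and 148 to 157 after Hira depletion. Their sums were 152 to 157 CPM after Ubn1 depletion and 128 to 143 after Ubn2 depletion. The higher Hira and Ubn1 sums do not describe each marker. With Hira depleted, Col4a1 rose from 57.7 to 74.7 CPM, while Gata4, Gata6 and Dab2 averaged lower than in controls. Of 8 tested after Hira depletion, 1 was called higher and 0 lower (12.5%, beside 16.2% of all genes). Their log2 fold changes were above 0 for 4 and below 0 for 4 (median -0.0046). With Ubn1 depleted, Col4a1 rose from 57.7 to 82.6 CPM, while Gata4 fell from 3.57 to 2.35 and Gata6 from 3.42 to 1.57. Of 8 tested there, 0 were called higher and 2 lower, with 6 log2 fold changes below 0 and 2 above (median -0.53). The sum of the trophoblast markers, most of it Tfap2c, overlapped between control and every depletion (27.1 to 39.9 CPM). Single trophoblast markers moved after Hira depletion, where 2 of 5 tested were called higher and 1 lower (median 0.89). After Ubn1 depletion 3 were tested. Cdx2 and Hand1 passed the filter through the Hira libraries, which bears on these counts. Cdx2 had 0 and 7 counts in controls and 37 and 16 after Hira depletion, Hand1 averaged 0.42 CPM in controls and 1.38 after Hira depletion, and Ascl2 fell from 4.63 to 1.73 CPM. The part of these markers in the changes of Epcam, Esrp1, Vim, Twist1 and the keratins was not tested.

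Further EMT transcription factors and genes of the TGF-beta pathway, a main inducer of the transition, followed. Of 18 other factors, 11 were tested, and after Hira depletion Hmga2 (1.22) and Snai3 (0.76) rose (median of the 11, 0.25), after Ubn1 depletion none was called by edgeR (median 0.09), and after Ubn2 depletion Tbx3 rose (0.71, median 0.11). After Ubn1 depletion 5 of the 11 had an unadjusted edgeR p under 0.05. Snai3 and Hmga2 were lower and Klf8, Tbx2 and Tbx3 higher. Klf8 (0.39) and Tbx3 (0.55) passed after adjustment but were under 1.5-fold. The share of all genes under that unadjusted threshold was not worked out, so the count cannot be read as a result about these factors. Of 24 TGF-beta pathway genes, 22 were tested after Hira depletion, with 3 higher and 1 lower (median 0.14). The 3 were the receptor Tgfbr2 (1.88), the co-receptor Eng (endoglin, 1.35) and the ligand Tgfb3 (1.62, from a mean of 0.349 CPM in controls), and the lower one was Ltbp3 (-0.72), which encodes a protein that stores latent TGF-beta. Ubn1 depletion raised 1 of 22, Eng (0.91). Ubn2 depletion raised 1 of 21, Eng (1.30), and lowered Ltbp3 (-1.42), the ligand Tgfb1 (-0.86) and Ltbp1 (-0.77). After Hira depletion 18.2% of the tested factors and 18.2% of the tested TGF-beta genes were called, near the 16.2% of all genes. After Ubn2 depletion these shares were 9.09% and 19%, beside 18.3%, and after Ubn1 depletion 0% and 4.55%, beside 3.09%. Eng was called higher after all 3 depletions, from 37.2 CPM in controls to 96.2, 70.2 and 91.9 after Hira, Ubn1 and Ubn2 depletion.

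**Figure D5:**
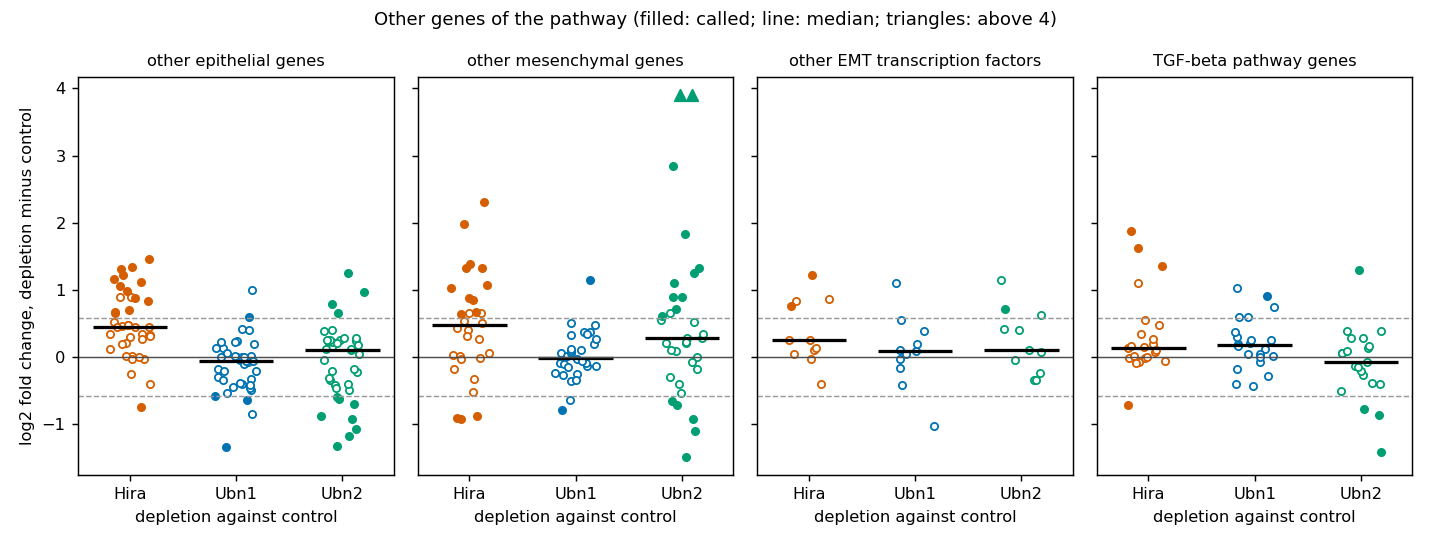
Log2 fold change against control of the other genes of the pathway in 4 lists (points are genes, filled where called; line, list median; dashed lines at 1.5-fold; triangles, 2 values above 4). The list medians of epithelial and mesenchymal genes are 0.45 and 0.47 after Hira depletion, and the 2 triangles are Col3a1 and Acta2 after Ubn2 depletion.

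Across the 8 libraries, which share 4 conditions, the genes with patterns most like 2 members were sought among 12194 genes as a description. Those most like Cldn6, the epithelial gene of widest range among members averaging at least 5 CPM, were Gm44732 (r = 0.961), Ciart (0.955) and Bmp8b (0.950). Those most like Vim were Cdc25b (0.986), Map2k7 (0.985) and Galnt10 (0.985). Within the set, Epcam and Esrp1 had r = 0.992 in log2 CPM and Epcam and Vim 0.742, while Epcam and Fn1 had -0.876, over the same 8 libraries.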

How the data were processed

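Per the submitters' processing notes, the authors used Trim Galore, STAR, featureCounts and the build GRCm38. The deposited values are raw counts in 3 tables of 55418 gene symbols, each holding 1 depletion beside the same 2 control libraries (0 control values differed between tables). Versions and the strand setting are not given in the sources used here. Across the 8 libraries, 21460 genes were at 0.

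Each comparison used only its own 4 libraries in edgeR 4.0.16 (R 4.3.3), with TMM scaling, the filterByExpr filter, quasi-likelihood tests and Benjamini-Hochberg adjustment over all genes tested. The study's thresholds of 1.5-fold and 0.05 for the adjusted p were kept. The SE comes from the log2 fold change and the quasi-F statistic, and 95% intervals use the t distribution with that test's degrees of freedom. With 2 libraries against 2, an exact two-sided permutation test cannot go below 0.333. CPM used TMM factors over all 8 libraries (0.97 to 1.06), and fold changes given without log2 are ratios of mean CPM. In simulated counts for Hira depletion against control, 100% of 200 genes moved by 1.5 on the log2 scale were called, with 6 unchanged genes called among 18933. For Hira against Ubn2 depletion these values were 99% and 4 among 18451. The simulation gave all genes the same dispersion, so genes with more spread between replicates are not represented. Most changes called among the EMT genes were smaller than 1.5 on the log2 scale. The simulation therefore does not show how often such changes are found or falsely called in these data.

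The gene set, the lists and the comparisons were chosen with earlier results of these data known. Named genes are the 10 members and the targets, and from each list up to 4 called genes of largest change that averaged at least 1 CPM and did not overlap control. Cdh1, Cdh2, Esrp2, Tgfb3 and single marker genes were named outside this rule, after their values were seen. Positions and exon lengths came from GENCODE M21, and promoters from RefSeq, which held 6 of the 10 genes. The whole-library chi-square per degree of freedom between replicates was 5.87 to 12.9, so replicates differed by more than counting noise. Alternatives were DESeq2 1.42.0, its size factors, 2 other filters, all 8 libraries in 1 model, a replicate block, adjusted p alone and each library left out. Python 3.11.15 and matplotlib 3.10.9 drew the plots.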

Additional observations from a re-analysis of the deposited data

Results flagged for a closer look

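With 2 libraries a group, no library could be tested as an outlier. The results listed here are EMT genes whose response differed between depletions in a direct edgeR quasi-likelihood test with Benjamini-Hochberg adjustment. Between Hira and Ubn1 depletion the log2 differences were 0.98 for Epcam (adjusted p = 7.45e-08), 1.45 for Cldn6 (3.34e-06), 3.74 for Esrp1 (4.37e-11), 0.59 for Vim (0.000146) and 1.22 for Twist1 (0.0012). Between Hira and Ubn2 depletion they were 0.61 for Epcam (7.5e-05), 0.84 for Cldn6 (0.00105), 2.35 for Esrp1 (5.28e-06), 0.62 for Vim (3.27e-05) and -1.30 for Zeb2 (0.00653). Between Ubn2 and Ubn1 depletion they were 1.38 for Esrp1 (0.0165), 1.21 for Zeb2 (0.0103) and 1.09 for Twist1 (0.00607). Esrp1 is the only gene of the set present in all 3 comparisons. The Vim call between Hira and Ubn1 depletion held in 4 of 10 alternatives. With DESeq2 the calls of Esrp1 and Zeb2 between Ubn2 and Ubn1 depletion were lost.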

How the results depend on the processing

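Over all alternatives, 117 values of the counts of called genes or members stayed within 1.5 times the reported count and 15 did not. By adjusted p alone, the genes called numbered 6644 after Hira, 1426 after Ubn1 and 7118 after Ubn2 depletion against control, 6641 for Hira against Ubn2, 4582 for Hira against Ubn1 and 3019 for Ubn2 against Ubn1 depletion. DESeq2 called 295 genes after Ubn1 depletion and 1022 between Ubn2 and Ubn1 depletion, and of the members 1 after Ubn1 depletion, 2 after Ubn2 depletion and 1 between Ubn2 and Ubn1 depletion. With each library left out, Ubn1 depletion gave 350 to 688 genes and 1 to 2 members, the lowest without control replicate 1, and Ubn2 depletion gave 2 to 4 members, the lowest without control replicate 2. The cause was not tested. For single members, 540 values kept direction and call, 19 lost the call, 9 gained it and 29 changed sign. Values for which DESeq2 gave no adjusted p were counted as kept without a check of the call. Esrp1 after Ubn1 depletion is among them, although DESeq2 did not call it. The sign changed for Snai1 between Hira and Ubn1 depletion with DESeq2 (-0.037), its size factors (-0.016), no filter (-0.0032) and all 8 libraries (-0.0014).

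With libraries left out, the sign changes lay within these ranges of log2 values. Against control they were -0.0093 to 0.15 for Cldn6, -0.33 to 0.16 for Zeb1, -0.74 to 0.39 for Zeb2 and -0.73 to 0.013 for Snai2 after Hira depletion. They were -0.64 to 0.50 for Zeb2 and -0.41 to 0.081 for Twist1 after Ubn1 depletion, and -0.95 to 0.40 for Snai2, -0.030 to 0.16 for Epcam and -0.30 to 0.45 for Esrp1 after Ubn2 depletion. Between Hira and Ubn2 depletion they were -0.73 to 0.63 for Snai2, -0.14 to 0.34 for Twist1 and -0.71 to 0.16 for Snai1, between Hira and Ubn1 depletion -0.52 to 0.34 for Snai1 and -0.54 to 0.34 for Zeb2, and between Ubn2 and Ubn1 depletion -0.14 to 0.080 for Vim and -1.19 to 0.17 for Snai2. None of these members was called in the comparison given.

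Deviations of same-numbered libraries correlated at -0.0521 to 0.0672 over 19264 genes, so no shared deviation was seen. This does not show whether same-numbered libraries were prepared together. With a replicate block, Hira, Ubn1 and Ubn2 depletion gave 5, 2 and 4 members called against control, with Snai1 gained after Hira depletion (0.66, adjusted p = 0.0423). Between depletions the block gave 5, 5 and 4, with Cldn6 gained between Ubn2 and Ubn1 depletion (0.61, adjusted p = 0.034), and the sign of Snai1 turned between Hira and Ubn1 depletion (-0.051).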
